A study of Mus musculus with 22 samples.

Results

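*Rps6kb1*, the gene of ribosomal protein S6 kinase 1 (S6K1), lies on mouse chromosome 11, and its RNA and that of 9 genes in its neighbourhood were measured by RNA-seq in 22 libraries of mouse embryonic fibroblasts (MEFs). The 9 neighbours are *Rnft1*, *Tubd1*, *Vmp1*, *Ptrh2*, *Cltc*, *Dhx40*, *Ypel2*, *Cuedc1* and *Gm15698*, 9 of the 55401 gene identifiers in the count table. The 9 are not simply the nearest genes, since *Ints2*, closer than *Cuedc1* and *Gm15698*, is not among them. The 9 were chosen by their position near *Rps6kb1*, outside the *Ccl* and *Slfn* gene clusters of the same chromosome. They were also chosen with earlier results of these libraries known, among them the counts of KO and DKO MEFs against late WT MEFs. Their values in those 2 genotype comparisons are therefore given as a description with no test. The comparisons between WT libraries are tested, although late WT libraries serve in both kinds of comparison.

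MEFs are primary cells grown from embryos, here of mice on the C57BL/6 strain, and they become senescent when passaged serially. In the *S6K1* set, early WT MEFs at passage 3 gave 4 libraries, late WT MEFs at passage 8 gave 4, and late MEFs at passage 8 without *S6K1* (KO) gave 3. The *S6K1/S6K2* set had 4 early WT libraries (passage 3), 4 late WT libraries (passage 8) and 3 late libraries (passage 8) without both *S6K1* and *S6K2* (DKO). KO MEFs and their WT controls came from littermates of heterozygous parents. DKO MEFs came from parents that were heterozygous for *S6K1* and lacked *S6K2*, and their WT controls from WT mothers of earlier breedings, so in the *S6K1/S6K2* set genotype and parental origin cannot be told apart. The deletions are carried in the germline, so every cell of a KO or DKO culture carries them.

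S6K1 phosphorylates ribosomal protein S6 and other targets downstream of mTORC1, a kinase complex that senses nutrients. Genes that lie side by side on a chromosome can share a promoter, run into each other at their 3′ ends or be inherited together with an engineered allele, and this makes the neighbours of a deleted gene of interest beside the deleted gene itself. The neighbours here act in unrelated processes. *Tubd1* encodes delta-tubulin of the centriole, *Vmp1* a membrane protein of the endoplasmic reticulum needed for autophagosomes to form, *Ptrh2* a mitochondrial peptidyl-tRNA hydrolase and *Cltc* the heavy chain of clathrin, which coats endocytic vesicles. *Rnft1* encodes a RING finger protein with membrane spans, *Dhx40* a DEAH-box helicase, *Ypel2* a member of the small yippee-like family and *Cuedc1* a protein with a ubiquitin-binding CUE domain. *Gm15698* is named *Elobl*, elongin B-like, in RefSeq.

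In the GRCm38 assembly *Rps6kb1* occupies chr11:86498869-86544885 on the minus strand. *Rnft1* (chr11:86484657-86499007, plus strand) faces it from the other side, and their 3′ ends overlap by 139 bases. *Tubd1* (chr11:86544991-86571608, plus strand) starts on the opposite flank, with 105 bases between its annotated start and that of *Rps6kb1*. Such gaps depend on the annotation, and GENCODE vM1 of the mm9 assembly puts these starts 186 bases apart. *Vmp1* (chr11:86583858-86683836, minus strand) runs towards *Tubd1*, contains the microRNA gene *Mir21a*, and shares a start region with *Ptrh2* (chr11:86684074-86692457, plus strand), with 237 bases between their starts. *Cltc* (chr11:86694352-86757567), *Dhx40* (chr11:86768849-86807877) and *Ypel2* (chr11:86936425-86993805) follow on the minus strand, at 149, 224 and 392 kb from *Rps6kb1*. *Cuedc1* (chr11:88099146-88194140, plus strand) is 1.55 Mb away and *Gm15698* (chr11:88964658-88966931, minus strand) 2.42 Mb away. The row of *Mir21a* held 0 counts in every library, and 3 counts corresponded to 0.173 to 0.279 CPM, the count of a gene scaled to the library's total.

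**Figure D1:**
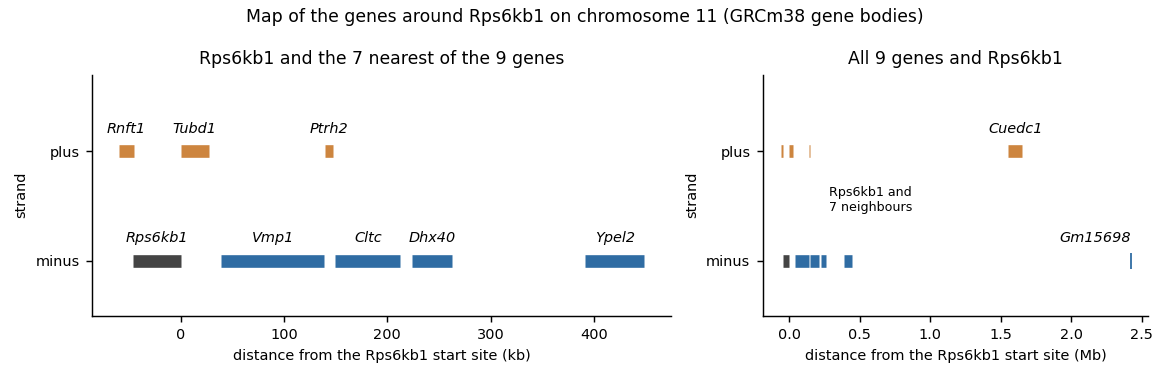
Gene bodies of *Rps6kb1* (dark grey) and of the 9 neighbours on the plus strand (orange) and the minus strand (blue), drawn by distance from the *Rps6kb1* start site, in kb on the left and in Mb on the right. *Tubd1* and *Rps6kb1* start back to back, 105 bases apart, while *Cuedc1* and *Gm15698* lie 1.55 and 2.42 Mb away.

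The promoter sequences show how closely the paired genes are packed. They were taken from RefSeq's annotation of GRCm38.p6 as windows of 300 bases, 250 before and 50 after an annotated start. That start need not be the outer end of the gene body given above. Windows were found for 9 of the 10 genes, *Rnft1* being the one without. The first window below (chr11:86544741-86545040, plus strand) is that of *Tubd1*, and the capitals mark the 105 bases between the start of *Tubd1* and that of *Rps6kb1*, which is transcribed to the left. The second (chr11:86683824-86684123, plus strand) is that of *Ptrh2*, and the capitals mark the 237 bases up to the start of *Vmp1*. They are shown because each holds the starts of 2 genes, of which only *Rps6kb1* was deleted.
*Tubd1* and *Rps6kb1*: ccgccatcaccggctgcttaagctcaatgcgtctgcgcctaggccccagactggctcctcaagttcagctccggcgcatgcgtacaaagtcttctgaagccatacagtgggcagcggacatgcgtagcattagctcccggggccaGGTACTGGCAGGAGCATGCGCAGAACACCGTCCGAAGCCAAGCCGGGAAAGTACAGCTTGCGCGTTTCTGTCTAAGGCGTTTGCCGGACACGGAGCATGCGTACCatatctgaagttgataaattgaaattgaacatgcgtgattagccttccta
*Ptrh2* and *Vmp1*: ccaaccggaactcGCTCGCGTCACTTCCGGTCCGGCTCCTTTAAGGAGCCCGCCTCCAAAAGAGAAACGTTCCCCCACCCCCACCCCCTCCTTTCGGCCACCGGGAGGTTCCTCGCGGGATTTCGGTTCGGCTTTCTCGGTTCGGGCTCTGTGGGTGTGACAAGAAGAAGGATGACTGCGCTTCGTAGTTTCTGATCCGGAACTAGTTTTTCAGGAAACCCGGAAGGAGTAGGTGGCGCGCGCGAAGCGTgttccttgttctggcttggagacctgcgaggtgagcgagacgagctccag

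The windows of *Cuedc1* (chr11:88098896-88099195, plus strand), *Dhx40* (chr11:86807611-86807910, minus strand) and *Gm15698* (chr11:88966882-88967181, minus strand) are shown because the values of these genes differed most between KO or DKO and late WT MEFs, together with those of *Rnft1*. Capitals mark matches, on either strand, to the letters of the CCAAT box (CCAAT), the GC box (GGGCGG), the TATA box (TATAAA) and an ETS motif (CCGGAAG). The *Dhx40* window follows a start inside the gene body given above, so its GGGCGG match also lies inside that body.
*Cuedc1*: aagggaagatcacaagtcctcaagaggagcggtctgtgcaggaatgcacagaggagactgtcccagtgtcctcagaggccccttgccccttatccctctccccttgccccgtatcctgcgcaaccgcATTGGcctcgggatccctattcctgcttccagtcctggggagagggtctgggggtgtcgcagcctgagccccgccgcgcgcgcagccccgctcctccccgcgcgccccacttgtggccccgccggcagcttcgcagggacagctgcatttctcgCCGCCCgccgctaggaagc
*Dhx40*: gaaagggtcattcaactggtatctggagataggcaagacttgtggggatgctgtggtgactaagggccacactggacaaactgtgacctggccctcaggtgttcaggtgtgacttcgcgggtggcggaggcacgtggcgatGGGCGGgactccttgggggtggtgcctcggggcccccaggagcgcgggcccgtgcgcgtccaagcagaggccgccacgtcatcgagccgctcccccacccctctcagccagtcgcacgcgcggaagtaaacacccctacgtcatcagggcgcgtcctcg
*Gm15698*: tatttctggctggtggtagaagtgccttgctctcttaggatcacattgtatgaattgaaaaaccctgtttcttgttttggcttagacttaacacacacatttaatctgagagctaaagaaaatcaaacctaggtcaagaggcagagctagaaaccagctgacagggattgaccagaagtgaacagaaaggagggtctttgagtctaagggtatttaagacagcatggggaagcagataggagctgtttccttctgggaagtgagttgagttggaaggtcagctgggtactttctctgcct

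The *Cuedc1* window held 1 CCAAT and 1 GGGCGG match and the *Dhx40* window 1 GGGCGG match, while the *Gm15698* window and the window between *Tubd1* and *Rps6kb1* held none of the 4. The *Ptrh2* window held 2 matches to CCGGAAG, and no match overlapped another. Across the promoters of 27025 genes, 37.9% held CCAAT, 35.9% GGGCGG, 14.2% TATAAA and 9.12% CCGGAAG, so most of these matches are common. The *Cuedc1* window was 67.0% G and C and the *Gm15698* window 43.7%, against a median of 52.7% over all promoters. A match to these letters is a description of the window and does not show that a factor binds there.

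Total counts were 10742454 to 17314832 per library (median 14651363.5), and values are given as CPM scaled by edgeR's TMM method. Nothing in the labels says which libraries share a culture or an embryo, so the tests measure the spread between these libraries. The fibroblast markers summed to between 19400 and 39305 CPM in every library, the epithelial list to at most 51.3 CPM and the endothelial list to at most 9.15 CPM. The 15 macrophage markers summed to 437 to 1842 CPM in early WT libraries, 5087 to 11822 CPM in late WT, 3387 to 4621 CPM in KO and 819 to 3137 CPM in DKO libraries, and all 15 were detected in each group. Fewer cells of a type and less RNA per cell cannot be told apart in such bulk samples. Replicates 2 and 4 of early WT in the *S6K1* set stood apart, with ribosomal protein RNA at 97604 and 94348 CPM against 51248 and 55231 CPM in replicates 1 and 3. Y-linked genes were expressed in 2 of 4 early WT libraries of each set, all 3 KO libraries, 1 of 4 late WT libraries of that set, 3 of 4 late WT libraries of the *S6K1/S6K2* set and 1 of 3 DKO libraries. The part that these differences played in the values below was not tested, except where a fit without those libraries or with a term for the Y-linked genes is given.

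*Rps6kb1* and *Rps6kb2*, the gene of S6K2, served as a check of the labels. *Rps6kb1* was at 22.8, 23.0 and 14.2 CPM in the KO libraries and at 56.9, 75.3, 55.6 and 66.1 CPM in late WT libraries. It was at 23.0, 20.4 and 28.3 CPM in DKO libraries and at 76.4, 66.3, 64.6 and 87.5 CPM in their late WT libraries. Every KO and DKO library was below every WT library, and some RNA of the locus was still counted (edgeR adjusted p = 0.00744 for KO and 0.000786 for DKO). *Rps6kb2*, on chromosome 19, measured 0.81 ± 0.478 CPM in DKO libraries (SD, n = 3) and 13.2 ± 2.47 CPM in late WT libraries of that set (SD, n = 4, edgeR adjusted p = 0.000412).

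Across the 16 WT libraries the neighbours spanned a wide range, which reflects gene length as well as RNA and is not a ranking. *Cltc* was at 380 to 565 CPM and *Vmp1* at 198 to 345 CPM. *Tubd1* stayed between 2.46 and 7.22 CPM and *Ypel2* between 6.81 and 13.8 CPM, on 28 to 112 and 104 to 229 counts per library over all 22 libraries. The steadiest were *Cltc* and *Cuedc1*, with coefficients of variation of 10.9% and 11.7% over the WT libraries. *Gm15698* was the most variable at 91.0%, from 0.939 to 15.4 CPM. All 9 passed edgeR's filter on low counts in each comparison.

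**Figure D2:**
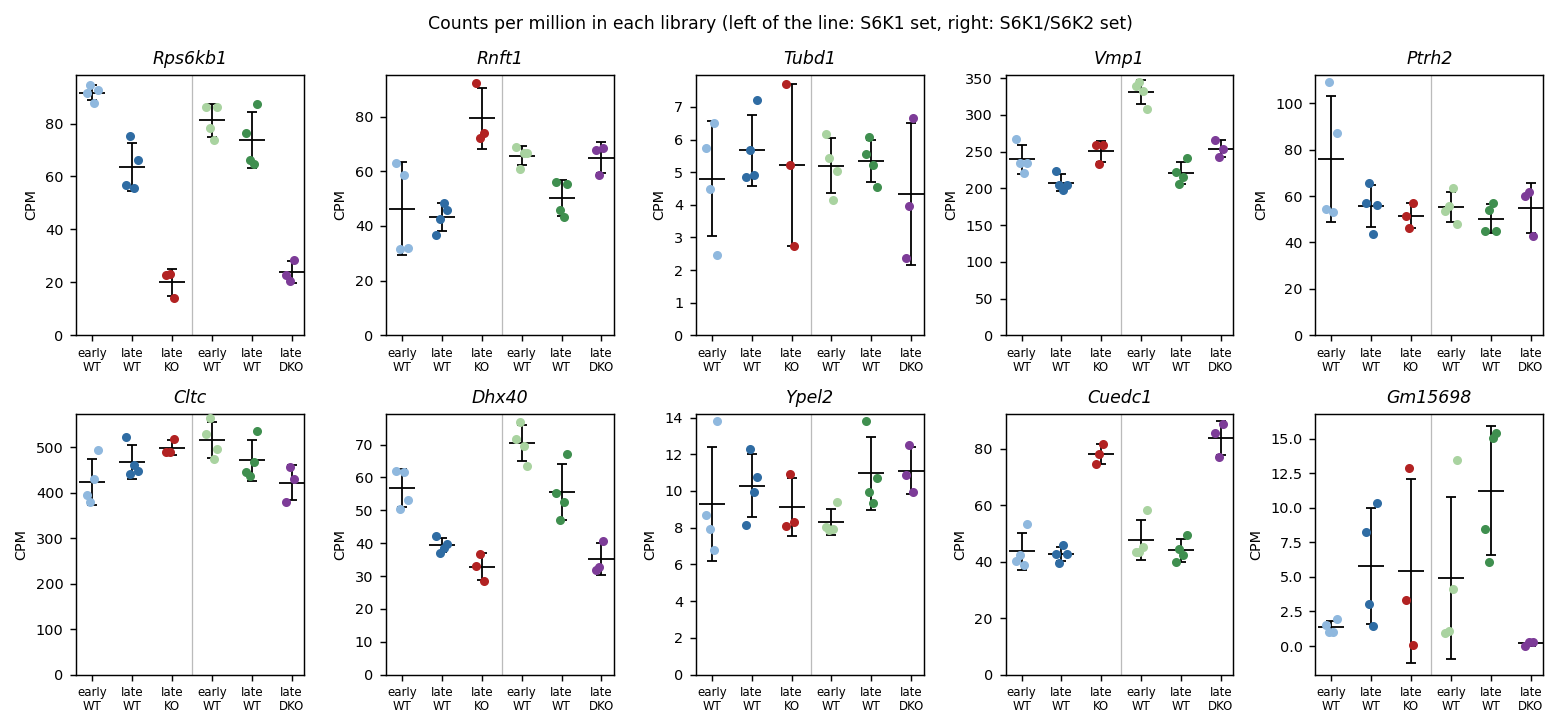
CPM of *Rps6kb1* and the 9 neighbours in each of the 22 libraries (points), with the mean and SD of each group (bars), for the *S6K1* set left of the grey line and the *S6K1/S6K2* set right of it. *Cuedc1* lies at 74.6 to 88.7 CPM in the KO and DKO libraries, all above the WT libraries, which reach 58.4 CPM.

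The comparison of late with early WT MEFs asks how the neighbours change as cells are passaged to senescence. *Dhx40* was lower in late MEFs of the *S6K1* set and *Vmp1* was lower in late MEFs of the *S6K1/S6K2* set. In each set 1 of 9 neighbours passed the test, a share that stands beside 12.9% of all genes tested in the *S6K1* set and 13.2% in the *S6K1/S6K2* set. The median log2 fold change of the 9 was −0.03 and −0.10, against −0.04 and 0.01 over all genes tested.

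*Dhx40* was at 61.9, 50.3, 61.6 and 53.3 CPM in early WT libraries of the *S6K1* set and at 42.1, 37.2, 38.6 and 39.6 CPM in late ones. The groups did not overlap, and the log2 fold change was −0.53 (standard error 0.13, edgeR adjusted p = 0.0166). In the *S6K1/S6K2* set *Dhx40* was at 71.7, 77.0, 69.6 and 63.6 CPM in early and 55.3, 47.1, 52.7 and 67.2 CPM in late libraries, with 1 late library inside the early range (log2 fold change −0.31, standard error 0.13, edgeR adjusted p = 0.127). The call in the *S6K1* set was lost without the filter on low counts (edgeR adjusted p = 0.0594) and without replicate 1 or 3 of early WT or replicate 2 or 3 of late WT (0.0505 to 0.0600). It held without the 2 libraries of high ribosomal protein RNA (log2 fold change −0.65, edgeR adjusted p = 0.0132).

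*Vmp1* was at 339, 345, 333 and 308 CPM in early WT libraries of the *S6K1/S6K2* set and at 222, 206, 215 and 241 CPM in late ones. Every late library was below every early library, with a log2 fold change of −0.55 (standard error 0.10, edgeR adjusted p = 0.00407), and this call held under all 14 alternatives. In the *S6K1* set *Vmp1* was at 268, 234, 221 and 235 CPM in early and 224, 205, 198 and 204 CPM in late libraries. There the groups overlapped and the difference did not pass (log2 fold change −0.21, standard error 0.12, edgeR adjusted p = 0.273).

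The effect of passage on *Vmp1* was lower by 0.38 on the log2 scale in the *S6K1/S6K2* set than in the *S6K1* set, an interaction that did not pass (log2 difference −0.38, standard error 0.13, edgeR adjusted p = 0.318, and 0.0407 with DESeq2). With edgeR 0 of the 9 neighbours passed that test, beside 0.712% of all genes, 1 had an unadjusted p below 0.05 (*Vmp1*, unadjusted p = 0.0107) and 1 passed with DESeq2.

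*Rnft1* missed the threshold in both sets. It was at 68.9, 60.8, 66.6 and 66.8 CPM in early and 56.1, 45.9, 43.3 and 55.5 CPM in late WT libraries of the *S6K1/S6K2* set. These groups did not overlap (log2 fold change −0.36, standard error 0.11, edgeR adjusted p = 0.055), and the difference passed with DESeq2 (adjusted p = 0.0126) and with RLE scaling in edgeR (adjusted p = 0.0415). In the *S6K1* set *Rnft1* in early WT libraries split into 63.1 and 58.7 CPM in replicates 1 and 3 and 31.5 and 32.0 CPM in replicates 2 and 4, the libraries of high ribosomal protein RNA, and late libraries lay between, at 36.8 to 48.5 CPM. Its log2 fold change was −0.10 with all libraries and −0.49 without replicates 2 and 4 (edgeR adjusted p = 0.824 and 0.0636).

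*Ptrh2* split the same early WT libraries the other way, at 54.3 and 53.1 CPM in replicates 1 and 3 and 109 and 87.2 CPM in replicates 2 and 4. Late libraries of the *S6K1* set were at 43.8 to 65.5 CPM, and the log2 fold change of −0.45 (standard error 0.22, edgeR adjusted p = 0.218) became 0.05 without replicates 2 and 4. In the *S6K1/S6K2* set *Ptrh2* was at 48.0 to 63.5 CPM in early and 44.9 to 57.1 CPM in late libraries, which overlapped (log2 fold change −0.11, edgeR adjusted p = 0.645). *Ptrh2* and *Vmp1*, which share a start region, therefore had different values for the same libraries.

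*Cuedc1* and *Cltc* differed little with passage. *Cuedc1* had log2 fold changes of −0.03 and −0.08 in the 2 sets, with standard errors of 0.13 and 0.12 (edgeR adjusted p = 0.903 and 0.668). *Cltc* had log2 fold changes of 0.14 and −0.10, with standard errors of 0.14 and 0.12 (edgeR adjusted p = 0.554 and 0.591). *Tubd1*, at few counts, had log2 fold changes of 0.22 and 0.07 with standard errors of 0.35 and 0.28 (edgeR adjusted p = 0.725 and 0.896). The approximate 95% interval of the first, from the normal distribution, ran from −0.46 to 0.90 and so took in changes in either direction.

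*Ypel2* and *Gm15698* had positive log2 fold changes in both sets, and neither passed in either set. *Ypel2* was at 7.89 to 9.40 CPM in early and 9.35 to 13.8 CPM in late WT libraries of the *S6K1/S6K2* set (log2 fold change 0.43, standard error 0.16, edgeR adjusted p = 0.100), with the lowest late library just inside the early range. In the *S6K1* set its log2 fold change was 0.15 (standard error 0.24, edgeR adjusted p = 0.739), and the highest library, at 13.8 CPM, was an early one. *Gm15698* was at 1.05 to 1.93 CPM in early and 8.23, 3.04, 1.47 and 10.4 CPM in late WT libraries of the *S6K1* set (log2 fold change 2.03, standard error 0.90, edgeR adjusted p = 0.167). In the *S6K1/S6K2* set it was at 0.939, 1.10, 4.15 and 13.4 CPM in early and 8.45, 6.08, 15.0 and 15.4 CPM in late libraries (log2 fold change 1.23, standard error 0.73, edgeR adjusted p = 0.280), and without early WT replicate 4 its log2 fold change was 2.46 (edgeR adjusted p = 0.0212). Libraries of 1 group thus differed widely in this gene. Its counts may also be uncertain, since reads may be shared with its near copy *Elob*, which was not tested.

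**Figure D3:**
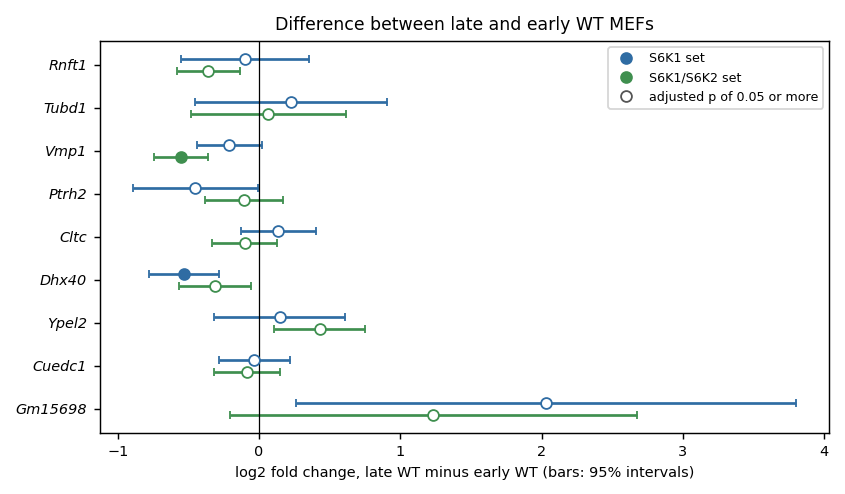
Log2 fold change of the 9 neighbours between late and early WT MEFs in the *S6K1* set (blue) and the *S6K1/S6K2* set (green). Bars are approximate 95% intervals from the normal distribution, narrower than edgeR's F test allows. A bar can exclude 0 where the test does not pass, as for *Ptrh2* in the *S6K1* set (edgeR unadjusted p = 0.0675). Points are filled where edgeR's adjusted p was below 0.05. *Dhx40* in the *S6K1* set (−0.53) and *Vmp1* in the *S6K1/S6K2* set (−0.55) are the filled points.

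Early WT MEFs of both sets have the same genotype and passage, and neither group is a side of the tests of KO or DKO against late WT MEFs, although both add to the estimate of spread in those fits. *Vmp1* was higher in the *S6K1/S6K2* set, where its early WT libraries at 308 to 345 CPM all lay above those of the *S6K1* set at 221 to 268 CPM (log2 fold change 0.47, standard error 0.09, edgeR adjusted p = 0.0227). It was the only one of the 9 to pass, beside 0.84% of all genes. The call was lost without the 2 libraries of high ribosomal protein RNA (log2 fold change 0.43, edgeR adjusted p = 0.237) and when these 2 groups were fitted alone (0.269) or no filter on low counts was used (0.126), and leaving out any of replicates 2 and 4 of the *S6K1* set or 1 to 3 of the *S6K1/S6K2* set gave edgeR adjusted p values of 0.0630 to 0.0822. *Dhx40* was also higher without overlap, at 63.6 to 77.0 against 50.3 to 61.9 CPM, a difference that did not pass (log2 fold change 0.31, edgeR adjusted p = 0.168).

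The comparison of KO and DKO with late WT MEFs asks what follows the loss of the S6 kinases, and for the neighbours of the deleted gene it is described here without a test. *Cuedc1* and *Rnft1* were higher and *Dhx40* lower in KO and in DKO libraries, and *Gm15698* was close to 0 in DKO libraries. In the KO comparison 4 of the 9 neighbours had groups that did not overlap, and in the DKO comparison 5 did. Over all genes tested the groups did not overlap for 13.2% in the KO and 16.4% in the DKO comparison. *Rnft1*, *Vmp1* and *Cuedc1* were higher and *Dhx40* lower without overlap in both, and 2.79% of the 13898 genes tested in both sets did so in the same direction. Over all genes tested, edgeR's adjusted p was below 0.05 for 0.0425% in the KO and 4.78% in the DKO comparison. Calls of the 9 neighbours in these fits are not a test of them. The 9 genes were chosen with these comparisons known, so nothing is read from their counts without overlap.

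*Cuedc1* had the most even difference. It was at 74.6, 78.3 and 81.7 CPM in KO libraries and 42.9, 39.5, 45.9 and 42.9 CPM in their late WT libraries, a log2 fold change of 0.87 (standard error 0.14). It was at 85.6, 77.0 and 88.7 CPM in DKO libraries and 39.8, 44.5, 42.4 and 49.3 CPM in their late WT libraries, a log2 fold change of 0.91 (standard error 0.13). All 6 libraries without S6K1 were above all 16 WT libraries, early ones included, and the values of the alternatives were 0.83 to 0.92 for KO and 0.83 to 0.99 for DKO MEFs.

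*Dhx40* was at 33.0, 36.8 and 28.5 CPM in KO libraries, below late WT libraries at 37.2 to 42.1 CPM (log2 fold change −0.27, standard error 0.14). In DKO libraries it was at 31.9, 32.8 and 40.7 CPM, below late WT libraries at 47.1 to 67.2 CPM (log2 fold change −0.68, standard error 0.14). The ranges of the KO and DKO libraries overlapped in part, and every late WT library of the *S6K1/S6K2* set was above every late WT library of the *S6K1* set.

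*Rnft1*, whose 3′ end overlaps that of *Rps6kb1*, was at 92.3, 72.1 and 73.9 CPM in KO libraries and 36.8, 42.4, 48.5 and 45.9 CPM in their late WT libraries (log2 fold change 0.87, standard error 0.25). With a term for the Y-linked genes, which were expressed in all KO libraries, this log2 fold change was 0.38. In DKO libraries *Rnft1* was at 67.9, 58.7 and 68.5 CPM against 43.3 to 56.1 CPM in late WT libraries (log2 fold change 0.36, standard error 0.12). The strand setting of the counting is not given in the sources used here, so reads over the 139 shared bases may have gone to either gene or to neither.

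*Vmp1* was at 259, 234 and 258 CPM in KO and 198 to 224 CPM in late WT libraries, and at 266, 243 and 254 CPM in DKO and 206 to 241 CPM in late WT libraries (log2 fold changes 0.27 and 0.18, standard errors 0.13 and 0.11). The groups were separate in both sets by a narrow margin.

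*Tubd1* shares its start region with the deleted gene and did not follow it. It was at 7.72, 5.22 and 2.72 CPM in KO libraries, around late WT libraries at 4.86 to 7.22 CPM (log2 fold change −0.12, standard error 0.37). In DKO libraries it was at 2.36, 3.97 and 6.67 CPM, around late WT libraries at 4.54 to 6.08 CPM (log2 fold change −0.30, standard error 0.31). *Rps6kb1* in the same libraries had log2 fold changes of −1.67 and −1.64.

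*Ptrh2*, *Cltc* and *Ypel2* overlapped between the groups in both sets. *Ptrh2* was at 46.3 to 57.0 CPM in KO and 42.6 to 61.8 CPM in DKO libraries (log2 fold changes −0.11 and 0.11, standard errors 0.24 and 0.15). *Cltc* was at 490 to 518 CPM in KO and 381 to 456 CPM in DKO libraries (log2 fold changes 0.09 and −0.17, standard errors 0.15 and 0.13). *Ypel2* was at 8.07 to 10.9 CPM in KO and 9.95 to 12.5 CPM in DKO libraries (log2 fold changes −0.18 and 0.00, standard errors 0.26 and 0.18).

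*Gm15698* had 0, 3 and 5 counts in the DKO libraries and 88 to 241 counts in their late WT libraries. Summed over libraries, 8 counts against 673 made a ratio of CPM of 0.0184 (95% exact binomial interval 0.00791 to 0.0365, which covers counting error only). The KO libraries, by contrast, ranged from 0.0757 to 12.8 CPM (1, 48 and 209 counts), which took in the whole range of late WT libraries at 1.47 to 10.4 CPM. One KO library was therefore as low as the DKO libraries, and early WT libraries of the *S6K1* set, at 14 to 29 counts, lay between.

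Of the 15 macrophage markers, 14 passed with edgeR as lower in the DKO comparison (median log2 fold change −2.40). In the KO comparison 0 passed with edgeR and 4 with DESeq2, 12 had an unadjusted p below 0.05, and all 15 log2 fold changes were negative (median −0.88). All 15 rose from early to late WT MEFs in both sets (medians 3.09 and 2.57). *Cuedc1* was at 38.9 to 58.4 CPM in early WT libraries, where these markers were low, and at 39.5 to 49.3 CPM in late WT libraries, where they were high. Mean *Gm15698* was 1.40, 5.77 and 5.43 CPM in early WT, late WT and KO libraries of the *S6K1* set. In early WT, late WT and DKO libraries of the *S6K1/S6K2* set it was 4.91, 11.2 and 0.20 CPM. The part of the macrophage markers in the values of the neighbours was not tested.

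**Figure D4:**
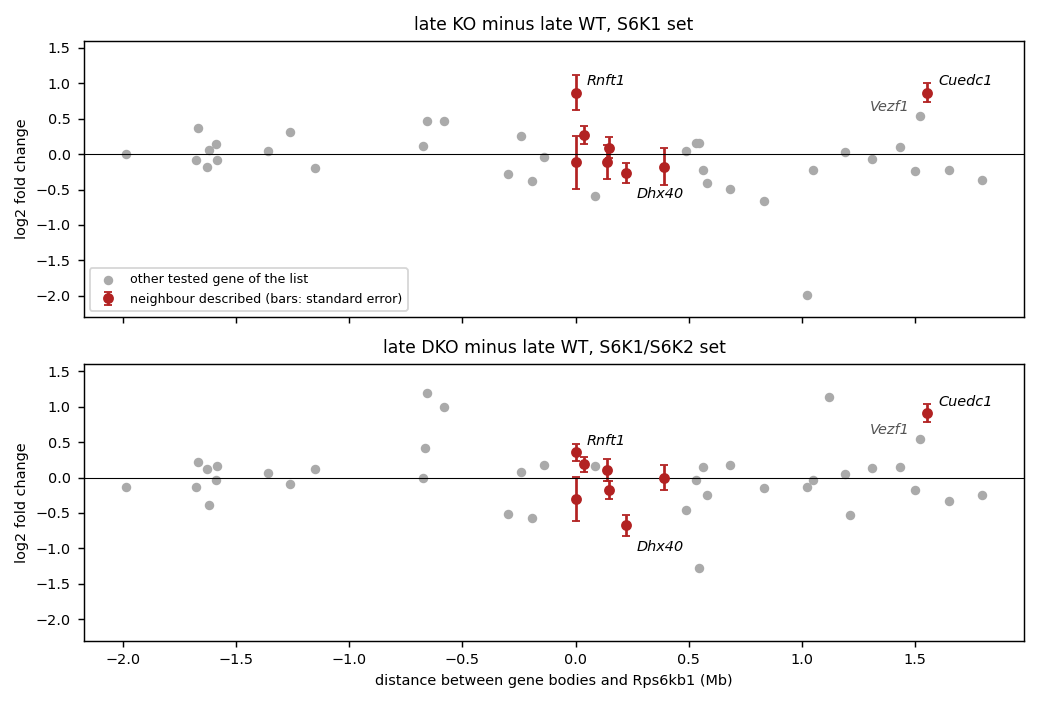
Log2 fold change of the tested genes within 2 Mb of *Rps6kb1* against their distance from it in Mb, for late KO against late WT MEFs (top, 42 genes) and late DKO against late WT MEFs (bottom, 45 genes), with the 8 neighbours in this range in red with their standard errors. *Cuedc1* (0.87 and 0.91) and the adjoining *Vezf1* (0.53 and 0.54) stand above 0 in both.

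To set the neighbours beside the rest of the region, all 70 annotated genes no more than 2 Mb from *Rps6kb1* were taken, 8 of the 9 neighbours among them. In the passage comparisons 4 of 42 tested genes passed in the *S6K1* set (2 higher and 2 lower) and 3 of 45, all lower, in the *S6K1/S6K2* set, and these shares of 9.52% and 6.67% were below those over all genes. Besides *Dhx40*, the genes that passed in the *S6K1* set were *Ints2* (log2 fold change −0.56), a subunit of the Integrator complex, *Dynll2* (0.60), a dynein light chain, and *Sept4* (1.96), a septin. Besides *Vmp1*, those in the *S6K1/S6K2* set were *Rad51c* (−1.22), which acts in homologous recombination, and *Myo19* (−0.68), a mitochondrial myosin. Between early WT MEFs of the sets, *Vmp1* and *Ppm1d* (−0.60), a phosphatase that restrains p53, passed.

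In the KO comparison 0 of the 42 genes passed with edgeR, where 0.0425% of all genes did, while 6 had an unadjusted p below 0.05 and 2 passed with DESeq2. In the DKO comparison 4 of 45 passed, or 8.89%, beside 4.78% of all genes. These were *Cuedc1* and *Dhx40*, which are among the 9 chosen genes, *Vezf1* and *4632419I22Rik*. The share of 8.89% thus rests in part on genes chosen with this comparison known, and nothing is read from it. *Vezf1*, a zinc finger transcription factor gene beside *Cuedc1*, 1.52 Mb from *Rps6kb1*, measured 75.6 ± 5.82 CPM in DKO (SD, n = 3) and 51.3 ± 6.67 CPM in late WT libraries (SD, n = 4, log2 fold change 0.54, standard error 0.12, edgeR adjusted p = 0.0288). It measured 62.9 ± 1.77 CPM in KO (SD, n = 3) and 43.5 ± 4.48 CPM in late WT libraries of that set (SD, n = 4), without overlap (log2 fold change 0.53, standard error 0.13, edgeR adjusted p = 0.194). *4632419I22Rik*, named *Brip1os* in RefSeq and 0.19 Mb from *Rps6kb1*, measured 28.2 ± 2.96 CPM in DKO (SD, n = 3) and 41.6 ± 5.0 CPM in late WT libraries (SD, n = 4, log2 fold change −0.58, standard error 0.15, edgeR adjusted p = 0.0450). Without any 1 of the 7 libraries, 1 to 3 genes of the list passed in the DKO comparison.

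Among the 42 genes of the region tested in both sets, 6 had groups without overlap in the same direction in both genotype comparisons, beside 2.79% of all genes tested in both sets. They were *Vezf1*, *4632419I22Rik* and the 4 neighbours named above, which were chosen with these comparisons known. The KO and DKO comparisons share no library. Over these 42 genes the log2 fold changes of KO and DKO MEFs had a Pearson correlation of 0.40 and a Spearman correlation of 0.45, and over the 34 genes that are not among the 9 neighbours these were 0.30 and 0.33. Over all 13897 genes tested in both sets, *Rps6kb1* left out, they were 0.29 and 0.20. Genes are not independent replicates, so these are descriptions of the libraries.

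Around *Rps6kb2*, the deleted gene of chromosome 19, 8 of 102 tested genes within 2 Mb passed in the DKO comparison, all lower, a share of 7.84%. In windows of 10 Mb along chromosome 11, the DKO comparison called 20 of 103 genes in the window that holds *Rps6kb1*, or 19.4%, and 0% to 10.3% of the genes in each of the other windows. The *Ccl* and *Slfn* clusters lie in that window, and 9 of their 15 tested genes were called. Without them 11 of 88 genes, or 12.5%, were called there, and the highest share elsewhere, 10.3%, came from 29 genes. Those 11 genes include *Cuedc1*, *Dhx40* and *Gm15698*, which were chosen with this comparison known. The shares of 19.4% and 12.5% are therefore not read as a result about this window.

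**Figure D5:**
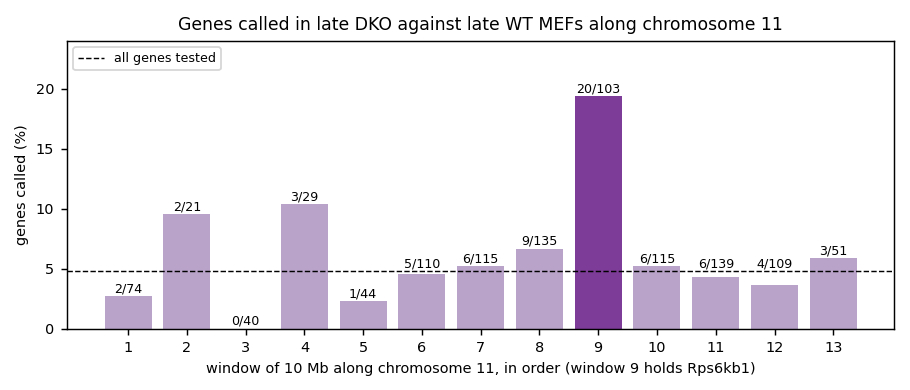
Share of tested genes with an edgeR adjusted p below 0.05 between late DKO and late WT MEFs in each window of 10 Mb along chromosome 11, with *Rps6kb1* left out, the number called over the number tested above each bar, and a dashed line at the 4.78% of all genes tested. The window that holds *Rps6kb1* and the *Ccl* and *Slfn* clusters has 20 of 103 genes.

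Relatives of the neighbours at other loci were counted from a list of 33 family members and partners, of which 32 were tested. Some of them, *Ap1b1* and *Tubg1* included, also lie on chromosome 11. In the passage comparison 3 were higher and none lower in each set, with medians of 0.03 and −0.01 over the list, beside 12.9% and 13.2% of all genes called. DESeq2 called 5 of the 32 in each set. *Cltb*, the light chain B that binds the clathrin heavy chain of *Cltc*, was higher in late MEFs of both sets, at 141 ± 20.5 against 83.1 ± 6.64 CPM and at 128 ± 13.2 against 88.1 ± 11.5 CPM (SD, n = 4 each, edgeR adjusted p = 0.003 and 0.022), while *Cltc* itself did not pass. *Ap1b1* was also higher in the *S6K1* set, and *Ypel3* and *Ypel5* were in the *S6K1/S6K2* set. In *Ypel5*, a relative of *Ypel2*, the log2 fold change was 0.86 (standard error 0.20, edgeR adjusted p = 0.016).

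In the KO comparison 0 of the 32 relatives passed with edgeR and 0 with DESeq2, while 4 had an unadjusted p below 0.05. In the DKO comparison 1 passed with edgeR and 2 with DESeq2, 3 had an unadjusted p below 0.05, and 4.78% of all genes passed with edgeR. The gene edgeR called was *Tubg1*, a gamma-tubulin gene on chromosome 11 and relative of *Tubd1*. It measured 19.4 ± 1.52 CPM in DKO (SD, n = 3) and 27.4 ± 1.81 CPM in late WT libraries (SD, n = 4, log2 fold change −0.51, standard error 0.12, edgeR adjusted p = 0.027). *Cuedc2*, *Rnft2* and the 6 relatives of *Dhx40* did not pass in either genotype comparison.

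Over the 22 libraries, which share depth, passage and genotype differences, the gene most like each neighbour was found by Pearson correlation of log2 CPM over 14885 genes. *Ptrh2* was most like *Nudt21* (r = 0.93), *Dhx40* most like *Pyroxd2* (r = 0.92), *Cuedc1* most like *Slitrk4* (r = 0.88), *Vmp1* most like *Tmtc4* (r = 0.86) and *Rnft1* most like *1810055G02Rik* (r = 0.86). *Cltc* was most like *Flnc* (r = 0.80) and *Gm15698* most like *Nrap* (r = 0.79), and the genes most like *Tubd1* and *Ypel2* (r = 0.78 and 0.74) had no symbol in the table used. None of the 7 named genes lies on chromosome 11.

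*Rps6kb1* stood at opposite ends of this order for 2 of the neighbours. For *Dhx40* it ranked 36 of 14885 (r = 0.82), and for *Cuedc1* it ranked 14884 of 14885 (r = −0.88). Within the 16 WT libraries alone these correlations were 0.61 and 0.16, so the one with *Cuedc1* rested on the KO and DKO libraries. *Rps6kb1* is the deleted gene, and both neighbours were chosen with the KO and DKO comparisons known. The ranks over the 22 libraries thus restate that choice in part, and nothing is read from them. The genes that adjoin *Rps6kb1* had correlations with it of −0.53 (*Rnft1*) and 0.26 (*Tubd1*) over the 22 libraries, and of 0.17 and −0.24 over the WT libraries.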

How the data were processed

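RNA-seq counts of 22 MEF libraries were analysed in 6 groups taken from the sample labels. The deposited values are raw counts per gene, without normalization, which the authors obtained from stranded mRNA libraries sequenced as short single-end reads. The paper names TopHat, mm9 and HTSeq, and the submitters' processing notes name CASAVA, STAR 2.7.1a, mm10 and DESeq2 1.28.1. The annotation and the strand setting are not given in the sources used here.

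Symbols named 32589 of the 55401 identifiers (96.98% of counts). Positions came from RefSeq GRCm38.p6 by symbol (25813 identifiers, 95.7% of counts), since 22812 identifiers are absent from GENCODE vM1 of mm9. *Gm15698* was matched to *Elobl* through RefSeq's synonyms. Counts of 30 pairs of libraries within groups differed well beyond sampling noise (chi-square over its degrees of freedom 20.6 to 265.7), so none was a duplicate.

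Counts were tested in R 4.3.3 with edgeR 4.0.16: filterByExpr, TMM scaling, quasi-likelihood F test (robust), Benjamini-Hochberg adjustment over all genes tested, threshold 0.05, in a fit on the 3 groups of a set, or on all 6 groups for early WT MEFs between sets and the interaction. The test was tried on simulated data with known changes first. Alternatives were DESeq2 1.42.0, RLE scaling, no filter on low counts, a term for the Y-linked genes, fits on 2 or 6 groups, windows of 1, 5 and 10 Mb, and leaving out each library. Leaving out the 2 libraries of high ribosomal protein RNA and GENCODE vM1 positions were added after seeing the data.

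The genes named were the 9 neighbours, *Rps6kb1* and *Rps6kb2*, up to 5 called genes of the 2 Mb list per comparison with the smallest p, genes overlapping a neighbour, and the gene most correlated with each neighbour. The relatives named and the promoter motifs were chosen after values were seen. The 9 genes and all lists were chosen with earlier results of these data known. The values of 1 gene of the list of relatives are not reported here.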

Additional observations from a re-analysis of the deposited data

Results flagged for a closer look

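Of 36 groups of 4 WT libraries examined for the 9 neighbours, 2 had a library whose gap to the others, divided by the range of the group, was above Dixon's 95% critical value, and chance flags about 1 in 20 groups. Both were replicate 4 of early WT in the *S6K1/S6K2* set. *Cuedc1* was at 58.4 CPM in this library and at 43.4 to 45.3 CPM in the other 3. *Ypel2* was at 9.40 CPM in it and at 7.89 to 8.06 CPM in the other 3. The same library had the highest *Gm15698* value of its group, 13.4 CPM.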

How the results depend on the processing

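No paired analysis was possible because the labels give no embryo, mother or batch shared by libraries, and the numbers of the libraries were given in accession order. With DESeq2 the number of genes called was 2845 for passage in the *S6K1/S6K2* set, 261 for KO, 1206 for DKO, 840 between early WT MEFs and 222 for the interaction, and the list within 2 Mb had 8 and 7 (passage), 2 (KO) and 4 (early WT) calls. With a term for the Y-linked genes there were 3265 calls for passage in the *S6K1* set, 38 for KO, and 8 (passage, *S6K1* set) and 1 (KO) in the list. Without a filter there were 43 calls for KO, and 1 (passage, *S6K1* set), 1 (KO) and 0 (early WT) in the list. A fit on the 2 groups gave 16 calls between early WT MEFs, and 2 (passage, *S6K1* set), 1 (KO), 1 (DKO) and 0 (early WT) in the list, and a fit on 6 groups 16 calls for KO, and 7, 5 and 1 in the list (passage in both sets and KO). RLE scaling gave 5 calls in the list for passage in the *S6K1/S6K2* set. Without the 2 libraries of high ribosomal protein RNA there were 19 calls between early WT MEFs, and 2 (passage, *S6K1* set) and 0 (early WT) in the list.

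Windows of 1, 5 and 10 Mb gave 2, 21 and 40 calls for passage in the *S6K1* set, 2, 14 and 34 in the *S6K1/S6K2* set, 0, 4 and 4 for KO, 2, 19 and 28 for DKO and 1, 2 and 2 between early WT MEFs. Positions from GENCODE vM1 left each count of the list within 1.5 times. Leaving out 1 library at a time gave 1223 to 1749 and 885 to 2247 calls for passage (885 to 1146 without early WT replicate 1 or 2 or late WT replicate 2 or 3 of the *S6K1/S6K2* set), 2 to 9 for KO (2 without late WT replicate 3 or 4 or any KO library), 97 to 783 for DKO (97 and 157 without DKO replicate 2 or 3, 328 without late WT replicate 2), 27 to 1497 between early WT MEFs (1497 and 491 without replicate 1 or 3 of the *S6K1* set, 54 or fewer without any of the other 6) and 78 to 118 for the interaction. In the list it gave 0 to 4 and 1 to 5 (passage), 0 to 0 (KO), 1 to 3 (DKO) and 0 to 5 (early WT) calls. The cause of these shifts was not tested.

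Directions that turned were all of differences that had not passed. With a term for the Y-linked genes the log2 fold change of *Rnft1* for passage in the *S6K1* set was 0.15 and that of *Gm15698* for KO 0.95. In the fit on 2 groups that of *Cuedc1* for passage in the *S6K1* set was 0.0046. Without the 2 libraries of high ribosomal protein RNA it was −0.12 for *Tubd1*, 0.0474 for *Ptrh2* and 0.11 for *Cuedc1* (passage, *S6K1* set), and −0.24 for *Tubd1*, 0.0325 for *Ptrh2* and 0.0933 for *Ypel2* between early WT MEFs. Leaving out 1 library gave ranges that crossed 0 for *Rnft1* (−0.250 to 0.118) and *Cuedc1* (−0.0543 to 0.0777) for passage in the *S6K1* set, *Tubd1* (−0.0294 to 0.149) and *Cuedc1* (−0.154 to 0.00794) for passage in the *S6K1/S6K2* set, *Gm15698* for KO (−1.73 to 0.50), and *Tubd1* (−0.106 to 0.288) and *Ypel2* (−0.282 to 0.0852) between early WT MEFs. Scaling by total counts kept 53 of 54 group means within 1 SD, *Vmp1* in early WT MEFs of the *S6K1/S6K2* set being the exception at 348 CPM. *Tubd1*, *Ypel2* and *Gm15698* had the fewest counts of the neighbours, at 28 to 112, 104 to 229 and 0 to 241 per library. *Gm15698* ranged from 1 to 209 counts in KO libraries, whose total counts were 14263644 to 16111060. The part of depth in the spread of these genes was not tested.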
